A study of Mus musculus with 10 samples.

Results

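The genes of oxidative phosphorylation were followed in 10 mouse pancreatic cancer cell lines. They were taken by symbol as the subunit genes of respiratory complexes I to IV and of the ATP synthase (complex V). Of 99 gene symbols that matched, 6 were marked as pseudogenes and 11 had a mean below 10 normalized counts, which left 82 of the 49568 genes in the table. Of these 82, 75 are encoded in the nucleus and 7 in the mitochondrial genome. By complex, 41 belong to complex I, 4 to complex II, 9 to complex III, 11 to complex IV and 17 to complex V. Just inside the minimum were Cox7a1 (mean 22) and Ndufs5 (mean 41.4), and just outside it was Cox6b2 (mean 7.82). Of the 82, 81 had enough reads to be tested, and Ndufs5 did not.

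Of these lines 5 are KPCAf/f (named A1693, A1809, A1925, A2441, A3992) and 5 are KPC (named A1081, A1620, A1625, A2031, A2032), each sequenced once. In this field KPC stands for mice that develop pancreatic tumours through alleles switched on in pancreatic cells by Cre. The labels leave KPCAf/f unexplained. From the series title its A was taken as Arid1a, a chromatin remodelling gene, and f/f as a pair of floxed alleles. Both groups therefore share the KPC background. The lines grew in the same culture medium with fetal bovine serum, and no treatment, time or animal age is given. The labels do not say whether each line came from its own mouse, so p-values measure the spread between these lines.

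Between 15124888 and 20419830 reads per line were assigned to genes. Arid1a had 1785, 1253, 1510, 1258 and 1519 normalized counts in KPCAf/f lines, against 2267, 820, 3109, 2460 and 1915 in KPC lines, where A1620 lay below every KPCAf/f line and the other 4 above. The means were 1465 ± 221 in KPCAf/f lines and 2114 ± 844 in KPC lines (SD, n = 5 each; log2 difference -0.42, limma adjusted p = 0.563). A count over the whole gene does not show whether floxed exons were lost, and so does not check the labels. Longer transcripts were lower in A1620 in general, as given below, and the part of this in its Arid1a count was not tested. Markers of pancreatic epithelium summed to between 5925 and 114231 in KPCAf/f lines, against 127396 to 271803 in KPC lines, and none of the 7 was at 0 in any line. The lowest sum was that of A1693, which had 2.70 of the homeobox gene Pdx1 and 10.8 of E-cadherin (Cdh1). Fibroblast markers summed to between 5606 and 84013 in KPCAf/f lines and between 2.94 and 10.1 in KPC lines. Of the 6, 3 could be tested and were called higher. A gene was tested only with at least 10 normalized counts in at least 5 of the 10 lines. These 3 passed that filter through the KPCAf/f lines, so their calls add no support. Reads of 4 Y-linked genes summed to 0 to 3 in KPCAf/f lines and to 1148 to 3415 in KPC lines. The sums of Y-linked reads and of both marker lists separate the groups without overlap. Their part in the results below therefore cannot be told apart from that of genotype in these lines, and was not tested. In bulk RNA, fewer cells of a type and less RNA per cell cannot be told apart.

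The respiratory chain moves electrons from NADH (complex I) and succinate (complex II) through complex III to oxygen at complex IV, and complexes I, III and IV pump protons across the inner mitochondrial membrane. Complex V lets the protons back in and makes ATP. Complex II is encoded in the nucleus alone, whereas the core membrane subunits of the other complexes are encoded in mitochondrial DNA and must be matched by subunits imported from the cytosol. In this way 2 genomes supply 1 machine. Pancreatic cancer cells use both this route and glycolysis for energy.

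No respiratory chain gene passed the test between the genotypes. Of the 81 tested, 0 were higher and 0 lower in KPCAf/f lines (limma on log2 of the normalized count plus 1, Benjamini-Hochberg adjusted p under 0.05 over all 13089 genes tested), where 1.36% of all tested genes were called higher and 0.39% lower. The smallest adjusted p of any of the 81 was 0.249. At an unadjusted p under 0.05, 4 were lower and 0 higher, against 6.26% and 8.39% of all tested genes. At the same unadjusted threshold edgeR gave 10 lower and 0 higher, against 5.96% and 8.64% of all genes, and DESeq2 gave 11 lower and 0 higher, against 7.27% and 9.52%. After adjustment both called 0 of the 81, where edgeR called 1.11% of all genes higher and 0.206% lower and DESeq2 4.06% higher and 1.64% lower. In 0 of the 81 genes did the values of the genotypes fail to overlap, and the same held without A1620, against 4.53% of all tested genes (6.29% without A1620). Of all genes, 2.84% did not overlap with KPCAf/f above KPC and 1.69% with KPCAf/f below it.

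Most of the nuclear differences were below 0, and their size changed when KPC line A1620 was left out. Of the 74 nuclear genes, 71 had a log2 difference (KPCAf/f minus KPC) below 0, and their median was -0.41, whereas 50.8% of all tested genes were below 0 with a median of -0.01. Without A1620, 57 of the 74 were below 0 with a median of -0.11, beside 51.4% of all genes and a median of -0.01. Short genes of any kind were also lower in this comparison. For transcripts under 600 bases the medians were -0.30 over all genes and -0.17 over nuclear respiratory genes. They were -0.12 and -0.11 from 600 to under 1000 bases, and -0.05 and -0.10 from 1000 to under 2000. From 2000 to under 4000 bases they were -0.0045 and -0.08, and at 4000 and over 0.01 and -0.06. For the 7 mitochondrially encoded mRNAs the median was 0.02 with all lines, when 2 of 7 were below 0, and -0.24 without A1620, when 6 of 7 were. Leaving out this 1 line thus moved the medians of the nuclear and mitochondrial genes in opposite directions. No gene was called without A1620 (0 of 81 adjusted, where 1.12% of all genes were higher and 0.244% lower), and 3 were lower and 0 higher at an unadjusted p under 0.05, against 6.88% and 8.38% of all genes. By complex, the median of the nuclear genes with all lines and then without A1620 was -0.45 and -0.10 for complex I, -0.22 and -0.03 for complex II, -0.36 and -0.09 for complex III, -0.45 and -0.12 for complex IV, and -0.40 and -0.12 for complex V.

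**Figure D1:**
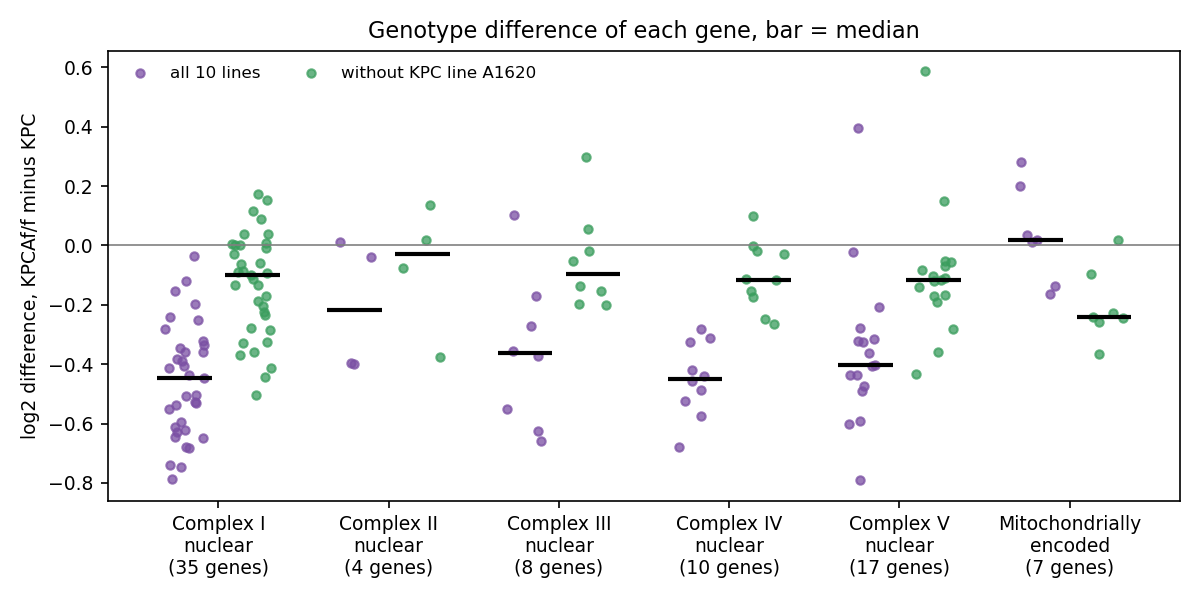
Log2 difference between the genotypes (KPCAf/f minus KPC, vertical axis) for each tested gene, by complex for nuclear genes and for the mitochondrially encoded mRNAs (horizontal axis). Each point is a gene, the purple points use all 10 lines, the green points leave out KPC line A1620, and bars are medians. Nuclear medians lie between -0.45 and -0.22 with all lines and between -0.12 and -0.03 without A1620, while the mitochondrial median is 0.02 with all lines and -0.24 without A1620.

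Line A1620 had the most mRNA of nearly every nuclear respiratory gene and the least of nearly every mitochondrial one. It was the highest of the 10 lines for 69 of the 74 nuclear genes (93.2%, against 25.9% of all tested genes). It was the lowest for 6 of the 7 mitochondrially encoded mRNAs, where it was the lowest for 26.7% of all tested genes. Its level divided by the mean of the other 4 KPC lines had a median of 3.04 over the nuclear genes and of 0.420 over the mitochondrial ones. The nuclear genes took 2.04% of the reads in A1620, while the KPCAf/f lines had 0.855% to 1.06% and the rest of the KPC lines 0.954% to 1.03%. The 7 mitochondrial mRNAs took 0.439% in A1620, while the KPCAf/f lines had 1.16% to 1.81% and the rest of the KPC lines 1.23% to 1.72%. The number of reads of these 7 mRNAs per read of the nuclear genes was thus 0.215 in A1620. It lay between 1.1 and 1.9 in each of the other 9 lines. Another 6 mitochondrial mRNAs had 0 reads in every line, as given below, so these shares and ratios do not cover all mitochondrial mRNAs.

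**Figure D2:**
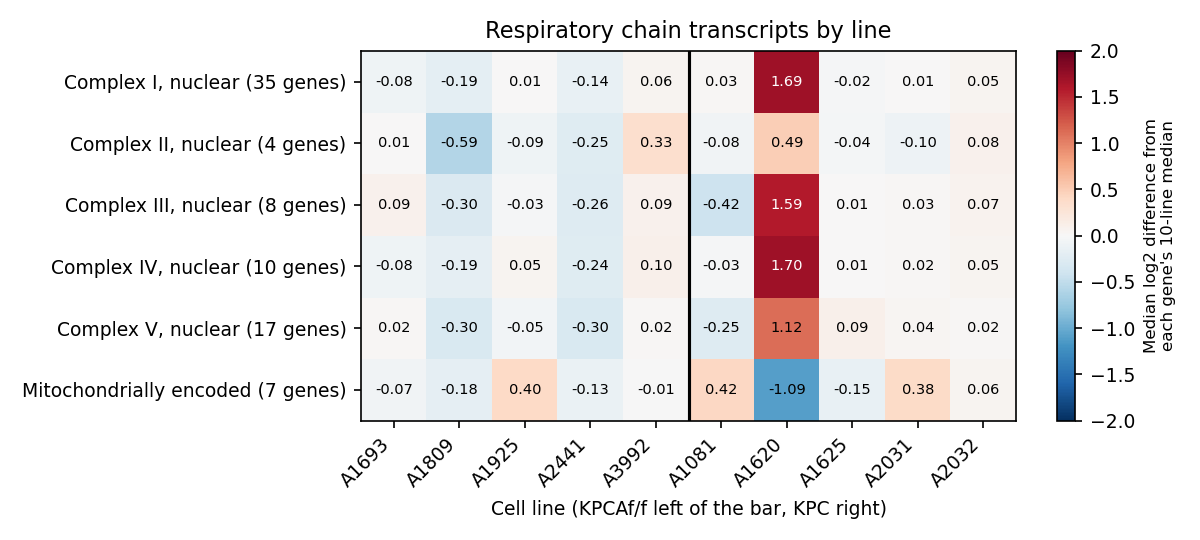
Median log2 difference of each line (columns, KPCAf/f left of the bar and KPC right) from each gene's own median over the 10 lines, for the nuclear genes of each complex and for the mitochondrially encoded mRNAs (rows). A1620 stands at 1.12 to 1.70 for the nuclear genes of complexes I, III, IV and V, at 0.49 for complex II and at -1.09 for the mitochondrial mRNAs, whereas the other 9 lines lie between -0.59 and 0.42.

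Among the other 9 lines the median spread of the tested respiratory genes was below that of all tested genes. The SD of the log2 level over these 9 lines had a median of 0.28 over the nuclear genes and of 0.35 over the mitochondrial ones, and of 0.44 over all tested genes. Some members lay above that, such as Sdhd at 0.53. The highest of the 9 lines exceeded the lowest by less than 2-fold for 52 of the 74 nuclear genes and for 5 of the 7 mitochondrial ones. This ratio had a median of 1.75 over the nuclear genes, 1.84 over the mitochondrial ones and 2.49 over all tested genes. The genes compared were not matched for expression level. Among the 74 tested nuclear genes, the widest range was that of Sdhd, at 3.31-fold, and the narrowest was 1.33-fold. KPCAf/f lines A1809 and A2441 were both 0.21 below the gene medians over the nuclear genes, while KPCAf/f lines A1693, A1925 and A3992 lay at -0.04, 0.00 and 0.06. KPC lines A1081, A1625, A2031 and A2032 lay at -0.03, 0.00, 0.02 and 0.05.

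Complex I takes electrons from NADH and is the largest of the complexes. The smallest unadjusted p of all was that of Ndufa4, placed here by its symbol but known in human cells as a subunit of complex IV. It had 2294, 3187, 3053, 2382 and 3493 normalized counts in KPCAf/f lines, against 4020, 9305, 3079, 4128 and 5186 in KPC lines. The groups overlap only through KPC line A1625, which lies below 2 of the KPCAf/f lines. Its log2 difference was -0.75 (SE 0.28, unadjusted p = 0.0217, limma adjusted p = 0.249) and -0.50 without A1620 (limma adjusted p = 0.247). It was also the nuclear complex I symbol with the highest mean.

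Ndufb5, an accessory subunit of the membrane arm, had 1051, 1057, 1130, 869 and 1309 normalized counts in KPCAf/f lines, against 988, 4800, 1628, 1522 and 1863 in KPC lines. KPC line A1081 lies within the KPCAf/f range and A1620 is more than 2-fold above every other line. The log2 difference was -0.79 (SE 0.35, limma adjusted p = 0.334). Ndufb8, another membrane arm subunit whose protein is often used to follow assembled complex I, had 1277, 1188, 1407, 1313 and 1336 in KPCAf/f lines, against 1469, 4418, 1864, 1885 and 1375 in KPC lines. The groups overlap by 1 pair of lines, KPCAf/f line A1925 and KPC line A2032, and the log2 difference was -0.61 (SE 0.29, limma adjusted p = 0.357) and -0.33 without A1620. All 35 tested nuclear genes of the complex had a difference below 0 with all lines, and 25 of 35 without A1620. Ndufs1, which carries iron-sulfur clusters of the matrix arm, was the one tested nuclear complex I gene in which A1620 was not the highest line, at 2081 against 2038 to 2931 in the other KPC lines.

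Complex II, succinate dehydrogenase, also works in the citric acid cycle. Sdha, its flavoprotein and highest member, had 4969, 2787, 5075, 5080 and 6825 normalized counts in KPCAf/f lines, against 3283, 4808, 4525, 5741 and 5716 in KPC lines, and the groups overlapped across most of their range. Sdhd, a membrane anchor, had 3074, 1650, 2660, 2655 and 5066 in KPCAf/f lines, against 3870, 3916, 2594, 3325 and 5463 in KPC lines. For both genes A1620 lay inside the range of the other lines. Sdhb, the iron-sulfur subunit, ranged from 1430 to 2138 in KPCAf/f lines, against 1511 to 2258 in KPC lines other than A1620, which had 5577. Sdhc, the other anchor and the lowest member, ranged from 1269 to 2230 in KPCAf/f lines, against 1504 to 3122 in KPC lines. The limma adjusted p of these 4 genes lay between 0.550 and 0.987.

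Complex III passes electrons to cytochrome c. Its 3 genes with the smallest p were Uqcr11, Uqcr10 and Uqcrfs1. Uqcr11, a small subunit, had 1264, 1099, 1363, 562 and 1344 normalized counts in KPCAf/f lines, against 949, 6079, 1291, 1385 and 1362 in KPC lines. The KPC lines other than A1620 span 949 to 1385, and 4 of the 5 KPCAf/f lines fall in that span. The log2 difference was -0.66 (SE 0.47, limma adjusted p = 0.531) with all lines and -0.20 without A1620. Uqcr10, also a small subunit, ranged from 547 to 1608 in KPCAf/f lines, against 1003 to 5438 in KPC lines, the last value being A1620. Uqcrfs1, the Rieske iron-sulfur protein, ranged from 1131 to 2134 in KPCAf/f lines, against 1266 to 3987 in KPC lines. Uqcrc1, a core protein and the highest nuclear gene of the complex, was the one gene of complex III with a positive difference over all lines, at 0.10, and 0.30 without A1620 (limma adjusted p = 0.876 and 0.569). It ranged from 2576 to 5601 in KPCAf/f lines, against 2380 to 6146 in KPC lines. Uqcrb, which lies near the ubiquinone site and was the lowest, ranged from 796 to 1483 in KPCAf/f lines, against 771 to 3437 in KPC lines.

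Complex IV, cytochrome c oxidase, reduces oxygen, and several of its subunits come as tissue isoforms. Cox6a1, the widely expressed form of subunit VIa and the highest nuclear gene of the complex, had 2294, 3027, 2727, 2526 and 3221 normalized counts in KPCAf/f lines, against 2851, 14450, 3176, 3545 and 3482 in KPC lines. A1620 was 4.43 times the mean of the other KPC lines, which overlap the upper KPCAf/f lines. The log2 difference was -0.68 (SE 0.40, limma adjusted p = 0.450) and -0.25 without A1620. Cox8a had 1662, 1852, 2507, 1760 and 1811 in KPCAf/f lines, against 2635, 6692, 2367, 2797 and 1552 in KPC lines, where A2032 was below every KPCAf/f line. Cox6b1 ranged from 2346 to 3534 in KPCAf/f lines, against 3066 to 10404 in KPC lines, and Cox7a2 from 1449 to 2744 in KPCAf/f lines, against 1600 to 5098 in KPC lines. In all 10 tested nuclear genes of complex IV A1620 was the highest line, by 2.57 to 4.53 times the mean of the other KPC lines.

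The isoforms of heart, skeletal muscle, testis and low oxygen stood at 0 or at low levels. Cox7a1, the muscle partner of Cox7a2, had 9.0 to 28.1 normalized counts in KPCAf/f lines, against 17 to 50.3 in KPC lines. Cox6a2, the muscle form of subunit VIa, had 0 to 3.37 in KPCAf/f lines, against 0 to 5.30 in KPC lines, and Cox6b2, the testis form of VIb, had 0.818 to 36.1 in KPCAf/f lines, against 0 to 10.4 in KPC lines. Cox8b, Cox8c and Cox7b2 had 0 reads in every line. Cox4i2 and Ndufa4l2, which low oxygen is known to induce and which lie outside the symbol rule, had at most 21.1 and 8.10 in KPCAf/f lines, against 5.30 and 2.65 in KPC lines. Cox4i1, the counterpart of Cox4i2, had 3260 to 6551 in KPCAf/f lines, against 4297 to 6095 in KPC lines other than A1620 and 23845 in A1620. Of the muscle markers examined, Myog had 0 reads in every line and Ckm at most 1.12 normalized counts, while Acta1 reached 1416 in KPCAf/f line A1809 and Tnnt2 reached 2317 in A1620.

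Complex V holds the catalytic head and the c ring that proton flow turns. Atp5b, the catalytic beta subunit and the highest nuclear gene of all, had 31069, 23322, 22278, 18665 and 31391 normalized counts in KPCAf/f lines, against 37012, 51575, 31877, 25816 and 27197 in KPC lines. The groups overlap in the range of 25816 to 31391. Its log2 difference was -0.44 (SE 0.26, limma adjusted p = 0.459) and -0.28 without A1620. Atp5f1, subunit b of the peripheral stalk, had 4355, 4839, 4344, 3770 and 4929 in KPCAf/f lines, against 3950, 8493, 6205, 6551 and 6469 in KPC lines. Every KPC line but A1081 was above every KPCAf/f line, with a log2 difference of -0.47 (SE 0.21, limma adjusted p = 0.320). Atp5h, subunit d of the same stalk, had 2269, 1930, 2097, 1667 and 2590 in KPCAf/f lines, against 2192, 9724, 2959, 3676 and 2656 in KPC lines, where again only A1081 lay within the KPCAf/f range. Its log2 difference was -0.79 (SE 0.36, limma adjusted p = 0.334) and -0.43 without A1620 (limma adjusted p = 0.304).

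The c ring subunit is encoded by 3 genes whose mature proteins are identical. Atp5g3 had 3636 to 4752 normalized counts in KPCAf/f lines, against 3867 to 10851 in KPC lines. Atp5g1 had 820 to 1729 in KPCAf/f lines, against 954 to 3742 in KPC lines, and Atp5g2 had 401 to 691 in KPCAf/f lines, against 467 to 866 in KPC lines. Per kilobase of the longest transcript, the mean level over the 10 lines was 6038 for Atp5g3, 844 for Atp5g2 and 328 for Atp5g1, whose longest annotated transcript, of 4715 bases, lowers its value on this scale. The log2 differences were -0.40, -0.21 and -0.36 for Atp5g3, Atp5g2 and Atp5g1, with limma adjusted p of 0.480, 0.694 and 0.662. Atp5l, subunit g, was the lowest at 42.6 to 82.8 in KPCAf/f lines, against 43.7 to 83.3 in KPC lines, and A1620 was 1 of the 2 lowest lines. Of the 50-base windows of its longest annotated transcript, 7.49% occur in other genes, 640 in all. The same share was 24.8% for Uqcrc2, 23.8% for Atp5h, 19.2% for Uqcrb, 15.6% for Ndufb5, 14.8% for Atp5g2 and 11.6% for Atp5g1. The levels of all 7 are uncertain, and the share does not say by how much. Among tested nuclear genes not named elsewhere it was highest for Ndufs3, at 39.7%. Atp5s and Atp5sl matched by symbol, though the product of human ATP5SL acts in complex I assembly. Atp5s had 115 to 166 in KPCAf/f lines, against 71.5 to 176 in KPC lines, with a log2 difference of 0.40 (limma adjusted p = 0.587), the largest of the positive differences among the 81.

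Mitochondrial DNA is transcribed from both strands as long precursors that are cut into mRNAs, tRNAs and rRNAs, so that its mRNAs share their start sites and differ in processing and decay. The mRNA mt-Co1, for the catalytic subunit of complex IV, had 66267, 73745, 119526, 71284 and 64815 normalized counts in KPCAf/f lines, against 101704, 19496, 84802, 86820 and 91885 in KPC lines. A1620 lies at 0.214 times the mean of the other KPC lines and A1925 is the highest of all lines. Its log2 difference was 0.20 (SE 0.46, limma adjusted p = 0.853), and -0.24 without A1620.

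The complex I mRNAs are mt-Nd1, mt-Nd2, mt-Nd4, mt-Nd5 and mt-Nd6. In KPCAf/f lines mt-Nd1 had 41849, 41998, 55782, 50064 and 53415, against 69049, 24029, 46421, 59264 and 53863 in KPC lines. For mt-Nd2 the values were 18767, 17302, 20819, 19766 and 24507 in KPCAf/f lines, against 26067, 5794, 16368, 25623 and 19518 in KPC lines. Both have A1620 alone at the bottom, at 0.420 and 0.265 times the mean of the other KPC lines, and KPC line A1081 at the top. For mt-Nd4 the values were 12497, 11316, 19969, 11362 and 12285 in KPCAf/f lines, against 20471, 10352, 11130, 18022 and 14869 in KPC lines. For mt-Nd5 they were 17472, 17357, 28962, 20428 and 24465 in KPCAf/f lines, against 33235, 10457, 15286, 32451 and 24414 in KPC lines. In both the KPC lines spread more widely than the KPCAf/f lines, and A1620 is lowest, though close to A1625 for mt-Nd4.

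Complex III has a single mitochondrial gene, mt-Cytb, which encodes cytochrome b. It had 44698, 36967, 65445, 35625 and 36240 in KPCAf/f lines, against 62879, 27124, 50283, 60588 and 47260 in KPC lines, with A1620 lowest and A1925 highest. Its log2 difference was -0.16 (SE 0.30, limma adjusted p = 0.815), and -0.37 without A1620. The only mRNA on the opposite strand is mt-Nd6, which in human cells lacks the poly(A) tail of the others. It had 402, 421, 489, 308 and 309 in KPCAf/f lines, against 388, 354, 586, 353 and 245 in KPC lines, and was the exception in A1620, which ranked 6 from the highest among the 10 lines. Whether the counting used strand is not stated, and reads of the opposite transcript cannot be told apart from those of mt-Nd6. The log2 differences of mt-Nd1, mt-Nd2, mt-Nd4, mt-Nd5 and mt-Nd6 lay between -0.14 and 0.28 with all lines (limma adjusted p from 0.744 to 0.990) and between -0.26 and 0.02 without A1620.

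**Figure D3:**
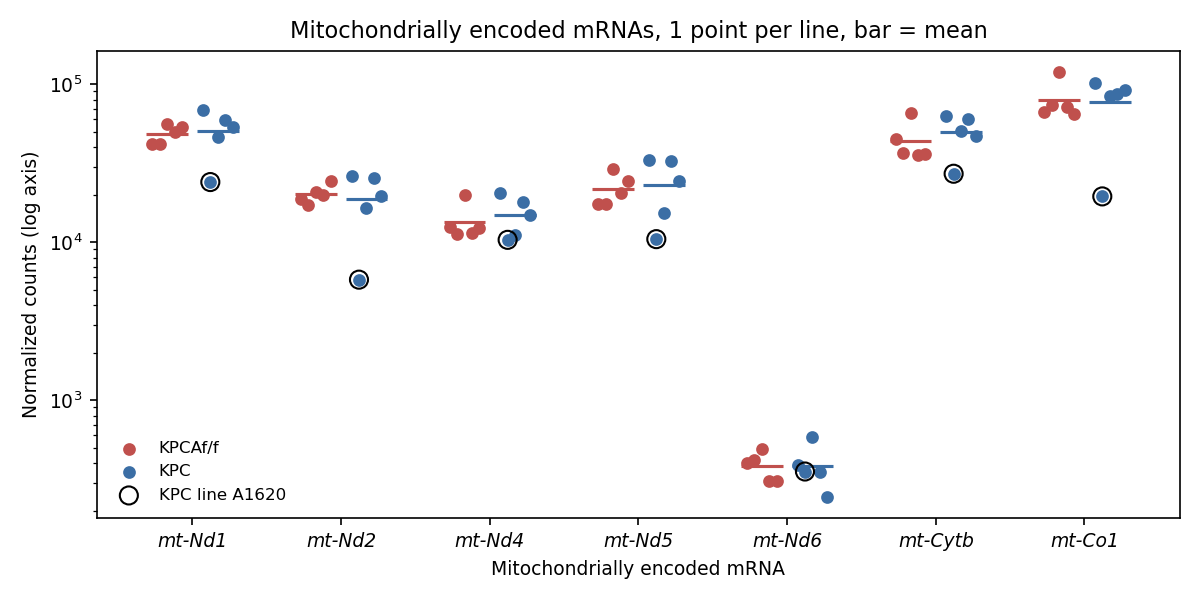
Normalized counts (log axis) of the 7 mitochondrially encoded mRNAs (horizontal axis), with 1 point per line, KPCAf/f in red to the left, KPC in blue to the right, and bars at the mean of 5 lines. The circled line A1620 is the lowest for every mRNA but mt-Nd6, and KPCAf/f and KPC lines otherwise cover overlapping ranges.

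Mitochondrial rRNAs did not share the low level of A1620. It had 6613 normalized counts of mt-Rnr1 and 7715 of mt-Rnr2, inside the range of the other 9 lines for both (4408 to 8571 and 4945 to 10713). These genes were looked up after the mRNA values were seen, and poly(A)-selected libraries hold them only in part. Per kilobase of transcript, mean levels over the 10 lines were 51801 for mt-Nd1, 50508 for mt-Co1, 40831 for mt-Cytb, 18741 for mt-Nd2, 12310 for mt-Nd5, 10325 for mt-Nd4 and 743 for mt-Nd6. Of the windows of mt-Co1 and mt-Nd4, 51.1% and 62.2% recur in other genes, as given below. Their values on this scale are therefore uncertain, and so is their place in this order. The highest nuclear values on this scale were 15668 for Atp5b and 7922 for Atp5a1, which encodes the alpha subunit.

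Another 6 mitochondrial mRNAs, mt-Co2, mt-Co3, mt-Atp6, mt-Atp8, mt-Nd3 and mt-Nd4l, had 0 reads in every line. For mt-Co2, mt-Co3, mt-Atp6, mt-Nd3 and mt-Nd4l, between 98.0% and 100% of all 50-base windows of the transcript also occur in another annotated gene. For each of them the copy is a pseudogene in a block on chromosome 1 (GRCm38 coordinates 24611535 to 24616197, minus strand) in which the copies follow the order of the mitochondrial genome. The aligned copies of mt-Co2, mt-Co3, mt-Atp6 and mt-Nd4l are 100% identical over 681, 783, 678 and 294 bases, and that of mt-Nd3 differs at 1 of 345 bases. The copies of these 5 mRNAs averaged at most 4.0 normalized counts. No annotated transcript shares a 50-base window with mt-Atp8, and its 0 was not traced further. These values therefore do not show whether the 6 mRNAs were expressed.

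The block ends inside mt-Nd4 and mt-Co1, which were counted. Windows shared with other genes make up 62.2% of mt-Nd4 and 51.1% of mt-Co1, against 8.19% of mt-Nd2, 7.61% of mt-Nd5 and 0% of mt-Nd1, mt-Nd6 and mt-Cytb. The levels of mt-Nd4 and mt-Co1 are therefore uncertain, while the low level of A1620 was also seen in mt-Nd1 and mt-Cytb, which share no window. The first 60 bases of mt-Nd3 and of its copy, and the first 60 aligned bases of mt-Co1 and of its copy, are shown because they show how little separates the mitochondrial and nuclear sequences. Capitals mark the substitutions T3C and A1066T, counted from the first base of the mitochondrial transcript.
mt-Nd3 (mitochondrial genome, chrM:9459-9518, plus strand): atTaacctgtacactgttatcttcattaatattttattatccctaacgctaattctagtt
Gm28438 (chr1:24613060-24613119, minus strand): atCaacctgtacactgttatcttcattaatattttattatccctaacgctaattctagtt
mt-Co1 (mitochondrial genome, chrM:6390-6449, plus strand): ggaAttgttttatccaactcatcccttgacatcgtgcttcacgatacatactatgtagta
Gm29216 (chr1:24616129-24616188, minus strand): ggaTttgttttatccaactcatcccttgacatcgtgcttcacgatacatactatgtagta

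Ndufs5, an accessory subunit of complex I on chromosome 4, was the lowest nuclear complex I gene and shares a long stretch of sequence with a copy. It had 138, 127, 2.53, 20.2 and 5.29 normalized counts in KPCAf/f lines, against 107, 5.30, 0.978, 2.24 and 6.19 in KPC lines. The lines A1693, A1809 and A1081 were thus above 100 and the other 7 at or below 20.2, whatever their genotype. The copy BC002163, a processed pseudogene on chromosome 16, had 152, 67.9, 189, 170 and 245 in KPCAf/f lines, against 69.1, 631, 195, 164 and 208 in KPC lines. Of the reads given to either gene, Ndufs5 took 47.5% in A1693 (95% Wilson interval 42.1% to 53.0%), 65.1% in A1809 (58.9% to 70.9%), 60.8% in A1081 (53.6% to 67.5%) and 10.7% in A2441 (6.84% to 16.2%). In the other 6 lines it took between 0.50% and 2.88%. The intervals cover counting error alone. The sum of both genes was 190 to 290 normalized counts in KPCAf/f lines, against 167 to 214 in KPC lines other than A1620 and 636 in A1620. A1620 is thus the highest line for the sum, as it is for most nuclear genes.

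**Figure D4:**
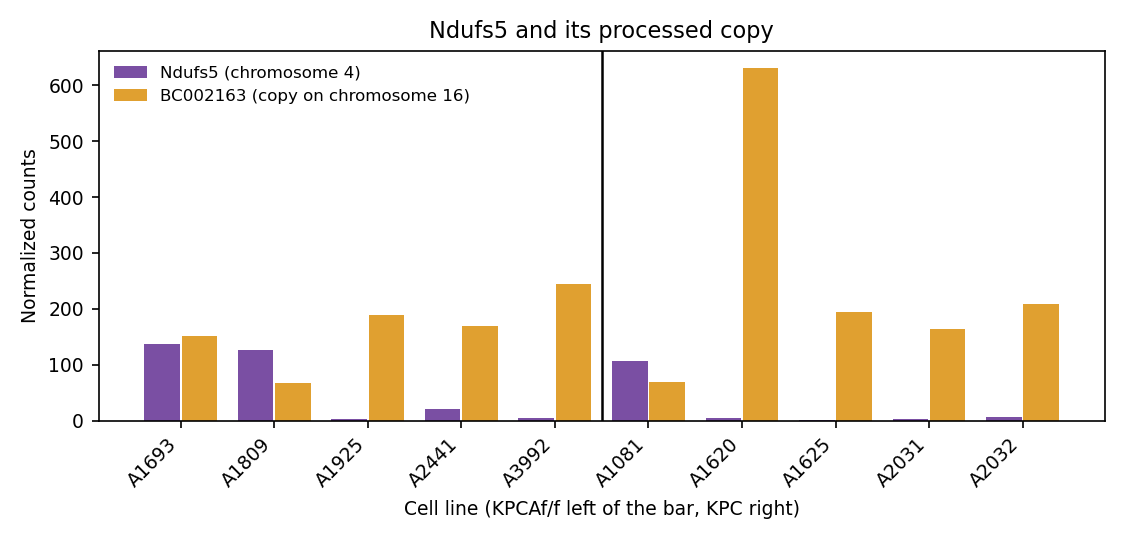
Normalized counts (vertical axis) of Ndufs5 (purple) and its processed copy BC002163 (orange) in each line (horizontal axis, KPCAf/f left of the bar and KPC right). Ndufs5 exceeds 100 in A1693, A1809 and A1081 and stays at or below 20.2 elsewhere, while BC002163 lies between 67.9 and 631.

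The aligned copy has 319 bases and differs from the Ndufs5 transcript by 2 substitutions, T173C and A197G, counted from the first base of the transcript. The 60 bases that hold both are shown because only reads that cross these capitals or leave the aligned stretch separate the genes.
Ndufs5 (chr4:123715975-123716034, minus strand): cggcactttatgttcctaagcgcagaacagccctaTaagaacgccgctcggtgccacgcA
BC002163 (chr16:42955676-42955735, plus strand): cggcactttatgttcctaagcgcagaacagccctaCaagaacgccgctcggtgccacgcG

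Across all genes, the difference of A1620 from the other lines went along with transcript length. Set against the 10-line mean, its log2 level had a slope of -0.65 per doubling of transcript length over 12780 genes. The slopes of the other lines were 0.10 to 0.15 for KPCAf/f and -0.02 to 0.04 for the other KPC lines. Nuclear respiratory genes are short, with a median transcript length of 1141 bases against 3310 over all tested genes. A1620 minus the mean of the other 4 KPC lines had a median of 1.62 (log2) over the nuclear genes, of -1.23 over the mitochondrial mRNAs and of -0.05 over all genes. Within the class of 1000 to under 2000 bases the medians were 1.5 over 24 nuclear respiratory genes, -1.27 over 5 mitochondrial mRNAs and 0.83 over 2130 genes of any kind. From 600 to under 1000 bases they were 1.77 over 26 nuclear respiratory genes and 1.44 over 556 genes of any kind. From 2000 to under 4000 bases the medians were 1.17 over 12 nuclear respiratory genes and 0.07 over 5138 genes of any kind. At 4000 bases and over they were 1.60 over 4 and -0.81 over 4722. These 4 include Atp5l, which in A1620 had 0.691 times the mean of the other KPC lines. Each length, here and in the correction below, is that of the longest annotated transcript. The transcript expressed may be shorter, which was not tested. After a loess correction for transcript length in each line, the median was 0.68 over nuclear respiratory genes, -1.95 over mitochondrial mRNAs and 0.08 over all genes.

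Other lists were also high in A1620. The same difference, uncorrected and then corrected for length, was 1.96 and 0.97 over 82 cytosolic ribosomal protein genes, 1.35 and 0.88 over 74 mitochondrial ribosomal protein genes, and 1.18 and 0.45 over 51 assembly factors of the complexes. Over 23 genes of pyruvate dehydrogenase and the citric acid cycle it was 0.09 and 0.04. The nuclear exceptions in A1620 were Ndufs1, Sdha, Sdhd, Uqcrc2 and Atp5l, with levels of 0.832, 0.998, 1.03, 1.05 and 0.691 times the mean of the other KPC lines. The highest ratios were 6.80 for Atp5e, the epsilon subunit of the ATP synthase head, and 6.23 for Ndufb7, an accessory subunit of complex I. With the length correction, the median difference between the genotypes was -0.11 over nuclear respiratory genes and 0.38 over mitochondrial mRNAs, and with the correction but without A1620 it was 0.01 and -0.17, beside -0.06 and -0.04 over all genes. The part of RNA quality in this line was not tested.

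**Figure D5:**
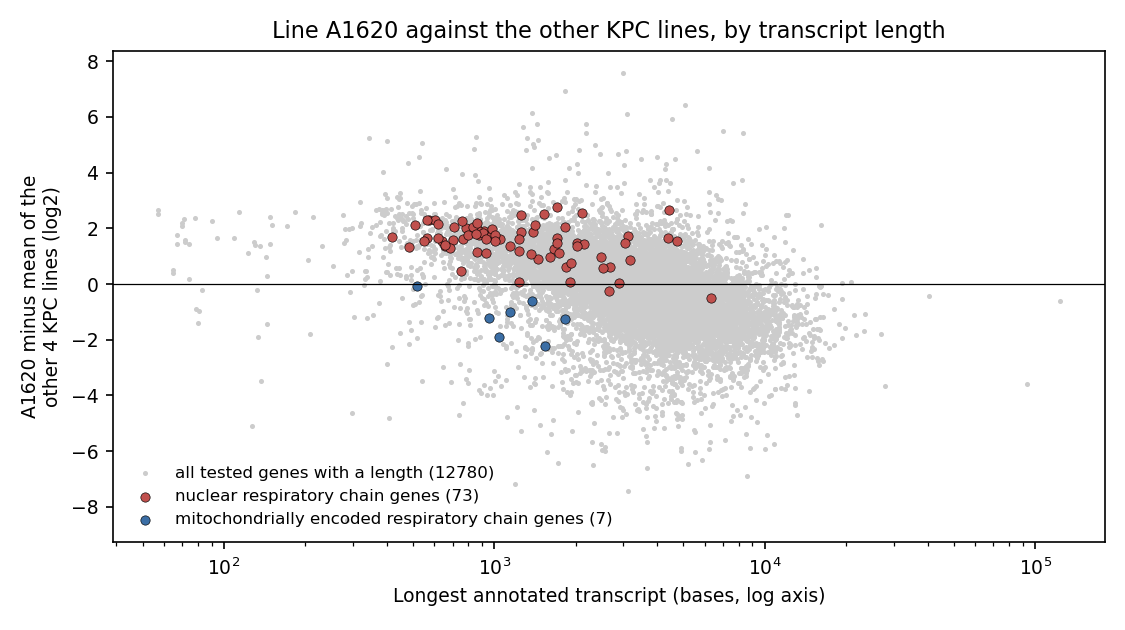
Difference of line A1620 from the mean of the other 4 KPC lines (log2, vertical axis) against the length of the longest annotated transcript (log axis), for all 12780 tested genes with a length (grey), 73 nuclear respiratory genes (red) and the 7 mitochondrially encoded mRNAs (blue). Grey points fall with length from a median of 1.56 under 600 bases to -0.81 at 4000 bases and over, most red points lie above 0 and all blue points lie below 0.

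Genes that build, feed and control the chain were read in the same fit, from lists drawn up around these complexes. Ppargc1a, which encodes PGC-1alpha, a coactivator that drives mitochondrial biogenesis, was the one gene of all these lists that was called. It fell to 19.8, 72.0, 32.0, 52.8 and 33.5 normalized counts in KPCAf/f lines, against 94.7, 110, 291, 272 and 163 in KPC lines. The groups do not overlap, and A1620 lies inside the KPC range. The means were 42.0 ± 20.5 in KPCAf/f lines and 186 ± 90.7 in KPC lines (SD, n = 5 each), with a log2 difference of -2.11 (SE 0.46, limma adjusted p = 0.0470). The direction was the same in all 24 other settings, from -2.48 to -1.88. The call was kept in 9 of them, among them DESeq2 (adjusted p = 0.000347). It was lost in 15, among them edgeR (adjusted p = 0.0604). Leaving out A1693, A1925, A2441, A3992, A1620, A1625, A2031 or A2032 ended the call, with limma adjusted p up to 0.128, and leaving out A1809 or A1081 did not.

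Its partners did not pass. Of the 11 tested regulators 1, Ppargc1a, was called lower and 0 higher, where 0.39% of all tested genes were called lower and 1.36% higher. Esrra, the estrogen-related receptor that PGC-1alpha coactivates, averaged 413 ± 141 in KPCAf/f lines and 717 ± 286 in KPC lines (log2 difference -0.79, limma adjusted p = 0.281). Nrf1, a factor that binds promoters of respiratory genes, ranged from 835 to 1185 in KPCAf/f lines, against 991 to 1342 in KPC lines (limma adjusted p = 0.678). Tfam, which packages and transcribes mitochondrial DNA, ranged from 677 to 1381 in KPCAf/f lines, against 1057 to 1555 in KPC lines (limma adjusted p = 0.453).

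Among 24 genes of mitochondrial DNA replication and transcription 0 were called, and the median log2 difference was -0.13. After Tfam the smallest p there was that of Elac2, which trims mitochondrial tRNAs, at -0.34 (limma adjusted p = 0.493). Among 51 assembly factors 0 were called, with a median of -0.15. Ndufaf4, a complex I assembly factor, had the smallest p there, at 463, 349, 365, 395 and 389 in KPCAf/f lines, against 575, 831, 442, 818 and 703 in KPC lines (log2 difference -0.75, limma adjusted p = 0.146). Only A1693 and A1625 overlap. Tmem126b, also of complex I assembly, went the other way, at 327 to 496 in KPCAf/f lines, against 265 to 353 in KPC lines (log2 difference 0.41, limma adjusted p = 0.397, and 0.45 without A1620, limma adjusted p = 0.317). Among 74 mitochondrial ribosomal protein genes 0 were called and the median was -0.41, and -0.12 without A1620. Mrps28, of the small subunit, had 237 to 370 in KPCAf/f lines, against 371 to 1939 in KPC lines, groups that do not overlap (log2 difference -1.21, limma adjusted p = 0.173). Mrpl50, of the large subunit, had 672 to 1802 in KPCAf/f lines, against 1404 to 2614 in KPC lines (log2 difference -0.80, limma adjusted p = 0.208). Among 20 genes of import and inner membrane organization 0 were called, with a median of -0.34, and Chchd3, of the cristae-shaping MICOS complex, was at -0.51 (limma adjusted p = 0.205). Phb2, a prohibitin of the inner membrane, was at -0.55 (limma adjusted p = 0.351), and -0.32 without A1620.

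Of 23 genes of pyruvate dehydrogenase and the citric acid cycle 0 were called, with a median of -0.12. Pdk4, a kinase that switches off pyruvate dehydrogenase, had 1194, 124, 964, 100 and 210 normalized counts in KPCAf/f lines, against 129, 5.30, 24.5, 13.4 and 94.8 in KPC lines. The groups overlap through KPC line A1081, and the log2 difference was 3.34 (limma adjusted p = 0.137). Cs, citrate synthase, a common measure of mitochondrial content, averaged 6779 in KPCAf/f lines and 9182 in KPC lines (log2 difference -0.44, limma adjusted p = 0.299). Of 16 carriers and porins 0 were called, with a median of -0.40 that stayed at -0.37 without A1620. Slc25a3, the phosphate carrier that supplies the ATP synthase, had 9209, 7763, 7654, 5660 and 9116 in KPCAf/f lines, against 14541, 20860, 11191, 9695 and 9456 in KPC lines. The groups do not overlap, though KPCAf/f line A1693 and KPC line A2032 lie side by side (log2 difference -0.69, limma adjusted p = 0.234). Vdac2, a porin of the outer membrane, was at -0.61 (limma adjusted p = 0.229). Cycs, cytochrome c, which carries electrons from complex III to complex IV and lies outside the symbol rule, had 631 to 908 in KPCAf/f lines, against 912 to 1874 in KPC lines (log2 difference -0.57, limma adjusted p = 0.280).

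Respiratory genes in many tissues carry promoter motifs for NRF1, YY1 and ETS factors. Promoters of 250 bases before to 50 bases after the start site, from RefSeq (GRCm38.p6), matched 62 of the 75 nuclear genes by symbol. Both strands were searched. The full NRF1 palindrome, whose letters stand in capitals in the stretches printed here, was found in 5 of 62 promoters (8.06%), against 2.36% of 9653 tested genes and 1.07% of 27025 promoters. The looser form, with any base in place of the A of the palindrome and so including the full one, was found in 17 of 62 (27.4%), against 11.7% of tested genes and 5.19% of all promoters. The YY1 motif AAGATGGC was found in 9 of 62 (14.5%), against 5.38% of tested genes and 3.19% of all. The ETS motif CCGGAAGT was found in 5 of 62 (8.06%), against 9.40% of tested genes and 4.31% of all. These matches describe letters in a window and not bound sites. The stretches around the full palindrome in 1 gene each of complexes I, IV and V are shown, since the same letters recur in genes of different complexes.
Ndufa11 (chr17:56717677-56717736, plus strand): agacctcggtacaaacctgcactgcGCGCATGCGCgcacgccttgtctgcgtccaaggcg
Cox6a1 (chr5:115349086-115349145, minus strand): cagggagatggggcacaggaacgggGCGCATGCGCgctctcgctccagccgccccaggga
Atp5k (chr5:108434415-108434474, minus strand): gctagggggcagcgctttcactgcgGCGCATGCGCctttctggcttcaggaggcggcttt
The Ndufa11 gene ranged from 609 to 913 normalized counts in KPCAf/f lines, against 808 to 1079 in KPC lines other than A1620, which had 3602. Atp5k, subunit e, had 989, 1129, 997, 893 and 1147 in KPCAf/f lines, against 927, 5628, 1250, 1229 and 1153 in KPC lines. In both, as in Cox6a1, A1620 is the highest line and the other KPC lines overlap the KPCAf/f lines.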

How the data were processed

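The deposited signal values are, per the submitters' processing notes and the values themselves, the authors' gene counts divided by DESeq2 1.14.1 size factors. The notes also name STAR 2.5.2b and featureCounts (Subread 1.5.0p3). Among genome builds they list GRCm38.p5 and mm9 without saying which was used. Not given in the sources used here are the counting annotation, its strand setting and the treatment of multiply mapped reads. Dividing by the value of 1 read gave whole reads within 0.001 for 100% of values, 15124888 to 20419830 per line, and at this depth 1 read is about 1 normalized count. Values on the scale log2(value + 1) were compared by limma-trend (limma 3.58.1, R 4.3.3), two-sided, over 13089 genes with at least 10 in at least 5 of 10 lines. Fold changes on this scale understate the change of low genes. Alternatives on whole reads were edgeR 4.0.16, DESeq2 1.42.0 and limma-voom. Others changed the pseudocount, filter, scaling, array weights, a loess correction for transcript length, and the lines used.

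Genes were named by a rule: every mitochondrial mRNA, per complex the called genes or the 3 with the smallest p, isoforms, the highest and lowest gene per complex, and in each other list the called genes or the 2 with the smallest p. The members, lists and tests were chosen with earlier results of these data known. Genes named beyond the rule (Ndufs1, Atp5s, Atp5a1, Atp5e, Ndufb7, Ndufa11, Atp5k, Uqcrc2, Cycs, Cox4i1, Cox4i2, Ndufa4l2, Esrra, Nrf1, the copies and the mitochondrial rRNAs) were chosen after their values were seen. GENCODE M21 (GRCm38) gave coordinates, transcript lengths and shared windows, and 95.3% of the symbols had an entry. The fit was tested on simulated data whose planted changes were far larger than the differences of the respiratory genes. That test therefore does not show whether differences of their size would be found. Figures were drawn with matplotlib 3.10.9.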

Additional observations from a re-analysis of the deposited data

Results flagged for a closer look

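Within a genotype, a line was picked out when its gap to the nearest other line exceeded 0.71 of the range of the 5 lines. Chance gives this for about 1 in 20 groups of normally distributed values. Normalized counts need not be so distributed, and the shares of all tested genes stand beside the counts below. A1620 was so picked out among the KPC lines for 55 of the 82 genes, or 67.1%, against 14% of all 13089 tested genes. Of these 55, 54 were nuclear. Another KPC line was picked out for 1 of the 82 (4.83% of all tested genes) and a KPCAf/f line for 6 (10.2% of all tested genes).

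Among the genes named above, A1620 stood apart in normalized counts at 4800 for Ndufb5, 4418 for Ndufb8, 5577 for Sdhb, 5438 for Uqcr10, 6079 for Uqcr11 and 3437 for Uqcrb. It also stood apart at 14450 for Cox6a1, 10404 for Cox6b1, 50.3 for Cox7a1, 5098 for Cox7a2, 6692 for Cox8a, 3742 for Atp5g1, 10851 for Atp5g3, 9724 for Atp5h, 3602 for Ndufa11, 6386 for Ndufb7, 9186 for Atp5e and 5628 for Atp5k. Each of these was above the other 4 KPC lines, whereas mt-Co1 at 19496 was below them. The share of reads from the nuclear genes in A1620, 2.04%, stood apart as well.

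KPCAf/f line A1925 was apart from the other 4 KPCAf/f lines, and above them, for mt-Co1 (119526), mt-Nd4 (19969), Cox8a (2507) and the share of reads from the 7 mitochondrially encoded mRNAs counted (1.81%). KPC line A1081 was apart from the other KPC lines for Ndufs5, at 107.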

How the results depend on the processing

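No respiratory gene was called in any of the 25 fits, and the smallest adjusted p of any of them was 0.109. At an unadjusted p under 0.05, between 0 and 2 respiratory genes were higher and between 0 and 11 lower in any fit. The number lower was 0 without A1693, 1 without A1809, A1925 or A2441, 2 without A2031 and 6 without A1081. It was 7 with TMM scaling, 1 with total reads scaling and 2 with quantile scaling, limma-voom or length correction. It was 1 without A1620 and A1693 or with length correction without A1620. Shares of all genes at this threshold are given above only for the main fit, edgeR, DESeq2 and the fit without A1620. The counts of the other fits therefore do not show a difference from all genes. At an adjusted p under 0.05 over the whole table, 178 genes were higher and 51 lower. These counts were 109 and 22 with a mean of at least 100, 403 and 183 with array weights, 521 and 210 with DESeq2 and 76 and 29 with limma-voom, and edgeR gave 27 lower. With 1 line left out, 122 to 227 were higher and 24 to 91 lower, the lower count being 91 without A1809, 32 without A1620, 31 without A1081, 30 without A1925 or A2441, 28 without A2031, 25 without A2032 and 24 without A1625. Scaling to total reads moved the median of all genes to 0.14. The median of the nuclear genes stayed below 0 with any 1 line left out (-0.54 to -0.11), and that of the mitochondrial mRNAs lay between -0.24 and 0.15.

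Of the 39 named respiratory genes tested, 24 had the other sign in at least 1 setting, 8 of them without A1620. These log2 differences were -0.059 for mt-Nd1, -0.095 for mt-Nd5 and -0.0047 for mt-Nd6 with DESeq2, and -0.048 for mt-Nd1 and -0.084 for mt-Nd5 with edgeR. Array weights gave -0.089 for mt-Nd1, -0.011 for mt-Co1, -0.0097 for mt-Nd5, -0.026 for mt-Nd6, 0.13 for Sdhc and 0.022 for Atp5e. Quantile scaling gave 0.082 for mt-Nd4, -0.060 for mt-Nd6, 0.21 for mt-Cytb, 0.061 for Sdhc, 0.061 for Ndufs1 and 0.027 for Atp5a1, and total reads scaling gave 0.012 for mt-Nd4, 0.11 for Sdhc, 0.11 for Ndufs1 and 0.12 for Atp5l. Length correction gave 0.11 for mt-Nd4, 0.14 for mt-Cytb, -0.0023 for Sdha, 0.22 for Uqcrb, 0.080 for Cox7a1, 0.17 for Cox7a2 and 0.21 for Atp5g2. With this correction and without A1620, a setting chosen after seeing the data, the values were -0.082 for mt-Nd1, -0.18 for mt-Co1, -0.20 for mt-Nd5, 0.028 for Sdhb, 0.10 for Sdhc, 0.019 for Uqcr11, 0.040 for Uqcr10, 0.28 for Uqcrb, 0.060 for Cox6b1, 0.075 for Cox7a1, 0.20 for Cox7a2, 0.069 for Atp5g2, 0.21 for Atp5e and 0.087 for Atp5k. Without A1620 and A1693 they were -0.18 for mt-Nd1, -0.073 for mt-Nd2, -0.19 for mt-Co1, -0.17 for mt-Nd5, -0.0022 for mt-Nd6, 0.12 for Sdhc, 0.041 for Cox7a1, 0.25 for Atp5e and 0.057 for Ndufb7. With 1 line left out, the ranges were -0.16 to 0.11 for Atp5l, -0.12 to 0.20 for Sdha, -0.13 to 0.14 for Sdhc, -0.48 to 0.056 for Uqcrb, -0.043 to 0.30 for Uqcrc1, -0.24 to 0.35 for mt-Co1, -0.23 to 0.15 for mt-Nd1, -0.097 to 0.45 for mt-Nd2, -0.24 to 0.18 for mt-Nd5, -0.12 to 0.094 for Ndufs1, -0.62 to 0.15 for Atp5e, -0.70 to 0.0021 for Ndufb7 and -0.11 to 0.20 for mt-Nd6. The cause was not tested. No paired analysis was possible because the lines carry names and no shared replicate numbers. Depth limits the isoforms near 1 read per line.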

Other observations

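Of the 16 carriers and porins 0 passed the test. The following were looked up after their values were seen, because their groups do not overlap. Slc25a5, the ADP/ATP carrier of most tissues, had 7503, 6061, 6207, 7034 and 7657 normalized counts in KPCAf/f lines, against 8485, 16167, 9227, 8438 and 9352 in KPC lines, and the groups do not overlap (log2 difference -0.54, limma adjusted p = 0.262). Ucp2, an uncoupling protein family member that carries metabolites, had 51.3, 2323, 2050, 2731 and 2580 in KPCAf/f lines, against 3663, 8658, 6013, 3440 and 7680 in KPC lines, and again the groups do not overlap (log2 difference -2.30, limma adjusted p = 0.310). Over the 16 tested carriers and porins the values did not overlap for 3, each lower in KPCAf/f, where 1.69% of all tested genes did so in that direction.

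Among cytosolic ribosomal protein genes 0 of 82 were called, with a median log2 difference of -0.61, and of -0.27 without A1620. The copy Rps3a3 had 4587, 2707, 2039, 3091 and 4310 normalized counts in KPCAf/f lines, against 3861, 35.8, 19.6, 15.6 and 13.4 in KPC lines (log2 difference 5.77, limma adjusted p = 0.0567). KPC line A1081 lay with the KPCAf/f lines. The gene Rps3a1, also in the list, had 3031, 9523, 7115, 2093 and 3034 in KPCAf/f lines, against 2781, 40722, 16891, 15224 and 16714 in KPC lines. How the counting split reads between near-identical sequences is not stated, and the levels of both are uncertain.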
